A study of Mus musculus with 27 samples.

Results

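This comparison set laser-captured mouse islets taken 2 days after a course of Myc activation had ended against islets of untreated mice, with 3 arrays in each group. The arrays were chosen by their titles alone, 6 of the 27 arrays of the series, and all 8251 genes that the array names were followed. In the 2 day group, mice had received tamoxifen every day for 21 days and were killed 2 days after the last dose. For the 21 day group, read later in the course, the titles name 4-hydroxytamoxifen and the protocol tamoxifen. Mice of the untreated group were taken at time 0 with no drug. Both groups carried the same pair of transgenes, MycER, a Myc protein that works only while 4-hydroxytamoxifen is bound to it, and BclXL, a protein that blocks cell death, each driven by an insulin promoter. Such a promoter is active in beta cells, so other cells caught in an islet section are not expected to make MycER. The labels do not name the strain, sex or age of the mice. No group received drug without MycER and no untreated group was kept for the length of the course, so effects of Myc, of the drug, of handling and of elapsed time cannot be told apart here. The labels call the 3 samples of a group repeats but do not say that each came from its own mouse, so the p-values measure the spread between these samples, which may be technical.

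Myc is a transcription factor that pairs with Max and binds the DNA letters CACGTG, and it raises genes for ribosome production, metabolism and cell division. In beta cells, Myc activity drives division and is known to lower genes of the mature insulin-secreting state, and the cells die unless a protein such as BclXL protects them. Islet tumours made this way regress once the drug is stopped, as MycER loses its ligand. A sample taken 2 days off drug holds RNA from islets that had been under active Myc for 21 days and then 2 days without drug.

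Levels are log2 signals, and a difference of 1 is a 2-fold change. The median level of an array lay between 6.95 and 7.01 at 2 days off and between 6.96 and 6.98 in untreated islets. Across probe sets, arrays of a group correlated with r of 0.971 to 0.987 at 2 days off and 0.978 to 0.984 in untreated islets, and probe sets are not independent replicates. Arrays give no read depth, and 3 arrays a group limit the precision. Bacterial control probe sets, whose targets are not mouse RNA, had group means of 3.56 to 7.07 at 2 days off and 3.58 to 7.30 in untreated islets. PheX 3′ alone set the top of the range. The next highest control, ThrX 3′, had means of 5.68 and 5.65, and the medians of the 15 controls were 3.94 and 4.03. Levels inside the range may be background, but the range is a cautious one, as it also holds the array medians. Of the 106 called genes named here, 23 rises had every untreated array at or below the top of that range, 4 falls (Mx1, Papss2, Vil1 and Slc22a23) had every 2 day array there, and 6 genes (Hmgb2, Slbp, Rfc4, Smc6, Epcam and Apaf1) had both groups there. The size of their fold changes is therefore uncertain. Among the 15 largest rises this holds for 12, Cox6b2 among them, and only Dlk1, Rad21 and Dctn3 had an untreated array above the range. Outside the 15 largest, the 23 rises hold Pno1, Eif3a, Fen1, Smc2, Smc3, Smc4, Sdha, Mrps22, Hspa14, Cidea, Atf3 and Hmgcs1. The labelled tissue was borne out by its hormones: Ins2, insulin, read 13.68, 13.51 and 13.74 at 2 days off and 13.83, 13.74 and 13.88 in untreated islets, and Iapp, amylin, read 12.54 to 12.78 at 2 days off and 12.55 to 12.86 in untreated islets. Other cells differed between arrays. The mean level of 23 acinar enzyme genes, which mark exocrine pancreas, was 6.74, 9.17 and 6.82 at 2 days off and 10.05, 7.74 and 8.20 in untreated islets. The mean level of 41 lymphoid markers was 6.80, 7.81 and 6.64 at 2 days off and 7.08, 6.84 and 7.18 in untreated islets, so replicate 2 of the 2 day group stood apart in both lists. The Gapdh control probe sets, whose 3′ minus 5′ signal grows as RNA degrades or is shortened in amplification, gave differences of 4.29, 3.24 and 3.09 at 2 days off and of 4.94, 3.65 and 5.67 in untreated islets. In whole tissue, fewer cells of a type and less RNA per cell cannot be told apart.

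**Figure D1:**
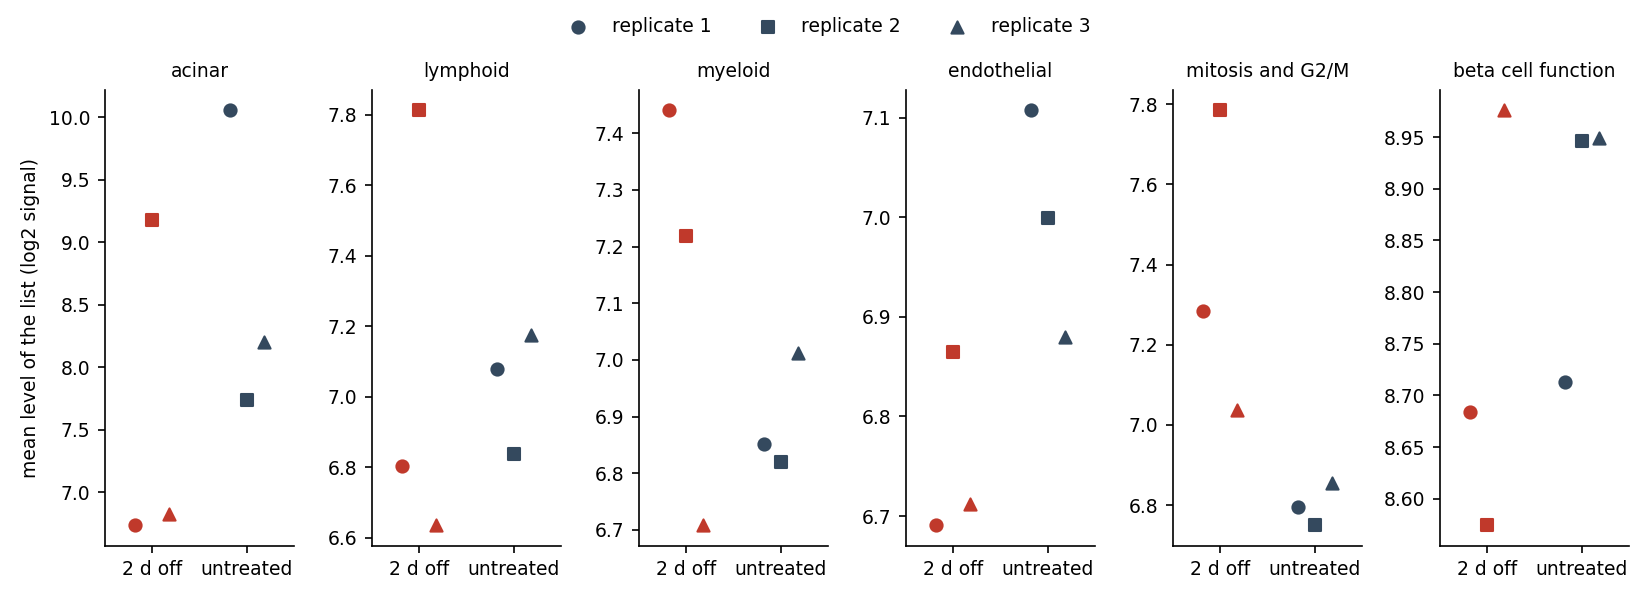
Mean level of 6 gene lists (vertical axes, log2 signal, each panel with its own range) in each of the 3 arrays at 2 days off, left, and the 3 untreated arrays, right, with 1 symbol per replicate. Acinar means overlapped between the groups (6.74 to 9.17 at 2 days off, 7.74 to 10.05 untreated), while the mitosis means did not (7.04 to 7.78 at 2 days off, 6.75 to 6.85 untreated) and were highest in replicate 2 at 2 days off.

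At 2 days off, 1915 of 8251 genes (23.2%) were called at an adjusted p under 0.05 by limma with Benjamini-Hochberg adjustment. Of these, 967 genes (11.7%) rose and 948 (11.5%) fell. The rises were larger, with a median of 0.81 on the log2 scale, or 1.75-fold, against a median fall of 0.56, or 1.48-fold. At least a 2-fold change was reached by 283 rises and 117 falls, and 4-fold by 8 rises and 6 falls. The groups did not overlap in 885 of the called rises and 884 of the called falls, and in 2889 of all genes (35.0%). Of the lowest 3rd of genes by level, 5.31% rose and 6.40% fell, against 17.4% and 14.9% of the highest 3rd. The median change over all genes was -0.02, and 46.4% of genes had a positive difference. Fitted on these 6 arrays alone the count was 873 genes, 477 higher and 396 lower, and without the array richest in acinar RNA in each group it was 1143.

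**Figure D2:**
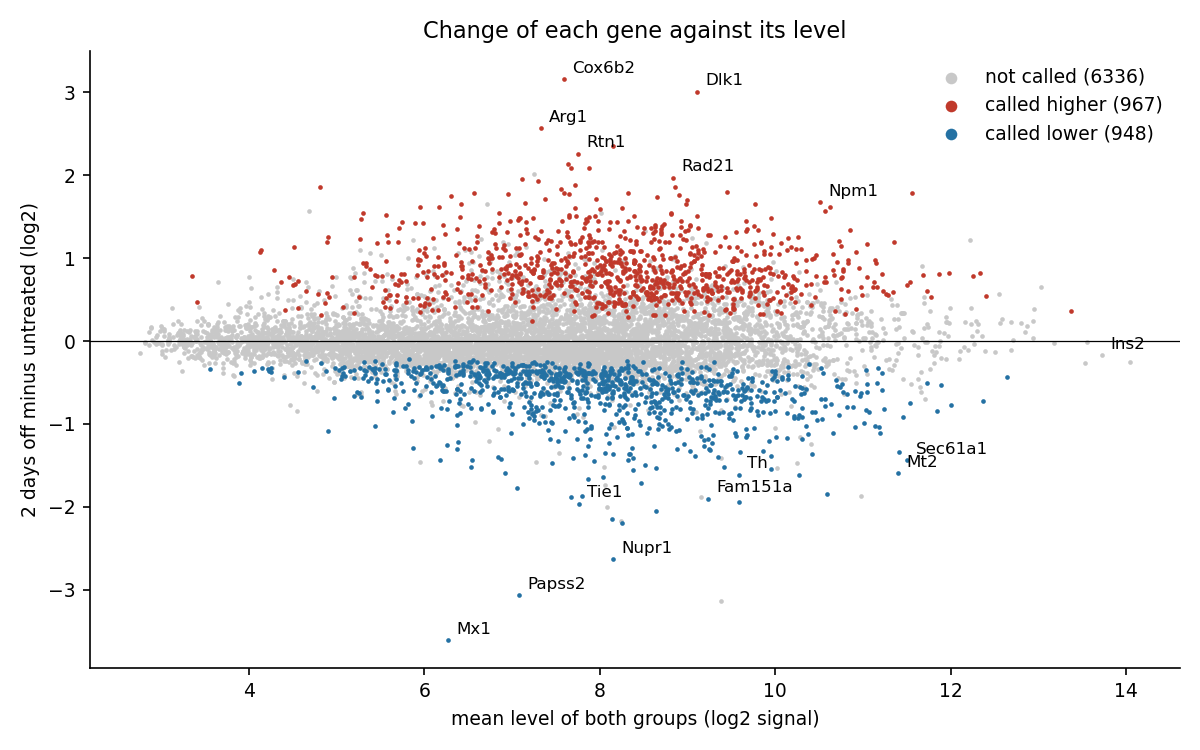
Difference of each gene, 2 days off minus untreated (vertical axis, log2), against its mean level in both groups (horizontal axis, log2 signal), with the 967 called rises in red, the 948 called falls in blue and the genes not called in grey. Cox6b2 and Dlk1 stand at the top, at 3.16 and 3.01, and Mx1 and Papss2 at the bottom, at -3.60 and -3.06, while insulin, Ins2, lies near 0.

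Among the called genes whose arrays did not overlap, the largest rise was that of Cox6b2, a form of a cytochrome c oxidase subunit best known from testis. It read 9.05, 8.93 and 9.53 at 2 days off, against 6.27, 5.93 and 5.82 in untreated islets, a difference of 3.16 ± 0.23 (SE), or 8.96-fold (adjusted p = 7.23e-08), with all untreated arrays inside the bacterial control range. By the maker's naming, its probe set holds probes shared with similar sequences, so signal from other transcripts was not separated. The other probe sets of the gene gave 0.93 (adjusted p = 0.00253) and -0.53 (0.0734). Dlk1, an imprinted transmembrane relative of the Notch ligands that marks immature and regenerating cells, followed. Dlk1 read 11.02, 10.07 and 10.76 at 2 days off, against 7.67, 7.75 and 7.40 in untreated islets, 8.06-fold higher (adjusted p = 2.56e-06). In both genes, the lowest array at 2 days off lay more than 2 log2 units above the highest untreated one. Mxi1, a repressor that competes with Myc for Max, read 8.72, 8.25 and 9.14 at 2 days off, against 6.07, 6.91 and 6.73 in untreated islets, 4.39-fold higher (adjusted p = 8.43e-06). Ptch1, the Hedgehog receptor, whose own gene is a target of that pathway, read 9.21, 7.77 and 9.17 at 2 days off, against 6.11, 6.78 and 6.99 in untreated islets. The Ptch1 difference was 2.09 ± 0.31 (adjusted p = 0.000124), but its other probe set gave -0.09 (0.598).

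Arg1, which splits arginine into urea and ornithine and is made by liver cells and some macrophages, was uneven. It read 10.52, 7.94 and 7.38 at 2 days off, against 5.94, 6.23 and 5.96 in untreated islets, 5.94-fold higher (adjusted p = 0.0282). Without replicate 1 of the 2 day group, its highest array, the Arg1 difference was 1.62 (adjusted p = 0.181), and the call also ended without any 1 of the untreated arrays (0.0581 to 0.0775). The 15 largest rises also held Rtn1, a reticulon of the endoplasmic reticulum typical of neuroendocrine cells (4.79-fold), Septin7, a filament-forming GTPase (3.88-fold), Rufy3, a protein of neurons that acts in axon growth (4.26-fold), and Dctn3, a subunit of the dynactin motor complex (3.63-fold). With the acinar and leukocyte means as covariates the Rtn1 difference was 1.54 and missed the threshold (adjusted p = 0.059). Dctn3 read 9.51, 9.70 and 10.15 at 2 days off and 7.38, 8.06 and 8.34 in untreated islets. Dusp16, a phosphatase that inactivates JNK, read 8.01, 8.10 and 8.67 at 2 days off and 6.32, 6.48 and 6.19 in untreated islets, 3.81-fold higher. Its other probe set gave 0.18 (adjusted p = 0.205). Srsf1, a splicing factor, was 3.56-fold higher by its main probe set, and its 3 other probe sets, at -0.06 to 0.38, did not pass the test. D430019H16Rik, a gene with no name beyond its clone, was 5.12-fold higher (adjusted p = 9.42e-07), with levels of 8.94 to 9.75 at 2 days off and 6.70 to 7.25 in untreated islets.

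The largest fall was that of Mx1, an antiviral GTPase induced by interferon. It read 4.33, 4.58 and 4.50 at 2 days off, against 7.70, 8.29 and 8.23 in untreated islets, 12.2-fold lower (log2 difference -3.60 ± 0.41, adjusted p = 1.2e-05). At 2 days off all 3 arrays were inside the range of the bacterial controls, so the size of the fall is uncertain. Papss2, which makes the sulfate donor used to modify matrix and hormones, read 4.83, 5.76 and 6.07 at 2 days off, against 7.77, 8.86 and 9.22 in untreated islets, 8.36-fold lower (adjusted p = 4.68e-06), again with the 2 day arrays inside that range. Nupr1, a small stress-induced nuclear protein also abundant in stressed acinar cells, read 6.14, 7.91 and 6.46 at 2 days off, against 10.90, 8.55 and 8.95 in untreated islets, 6.19-fold lower (adjusted p = 0.00304). Its highest reading was in the untreated array richest in acinar RNA. Without that array the Nupr1 difference was -1.91 (adjusted p = 0.029), with the acinar and leukocyte means as covariates it was -1.57 (0.00097), and in the 6 arrays alone it missed the threshold (0.0583).

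Among membrane and transport proteins that fell, Atp2a3, the SERCA3 calcium pump of the endoplasmic reticulum, read 9.57, 9.92 and 9.51 at 2 days off, against 11.76, 11.37 and 11.39 in untreated islets, 3.58-fold lower (adjusted p = 2.79e-05). Its other probe sets, at -0.09 and -0.06, did not pass. Vil1, villin, which bundles actin in microvilli, was 3.65-fold lower, with 6.74, 6.83 and 7.04 at 2 days off, against 8.98, 8.31 and 8.92 in untreated islets. Tmem266, a membrane protein with a voltage sensor, was 4.58-fold lower, Slc22a23, a solute carrier, 3.40-fold lower, and Fam151a 3.73-fold lower. Fam151a was the most even of these, at 8.09, 8.41 and 8.37 at 2 days off and 10.14, 10.14 and 10.29 in untreated islets. Defb1, an antimicrobial beta-defensin of epithelia, was 4.44-fold lower, and Cyfip2, a subunit of the complex that starts actin branching, was 4.14-fold lower. Bckdhb, of the enzyme complex that breaks down branched-chain amino acids, was 3.70-fold lower. Nrp1, a co-receptor of semaphorins and VEGF, was 3.29-fold lower by its main probe set, while the other gave -0.43 (adjusted p = 0.504). Mark2, a kinase of microtubule-binding proteins, was 3.84-fold lower (adjusted p = 0.025), a call that ended without replicate 2 or 3 of the 2 day group (0.0896 and 0.0692) or untreated replicate 1 (-1.56, adjusted p = 0.126). Its other probe sets, at -0.10 and -0.40, did not pass.

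**Figure D3:**
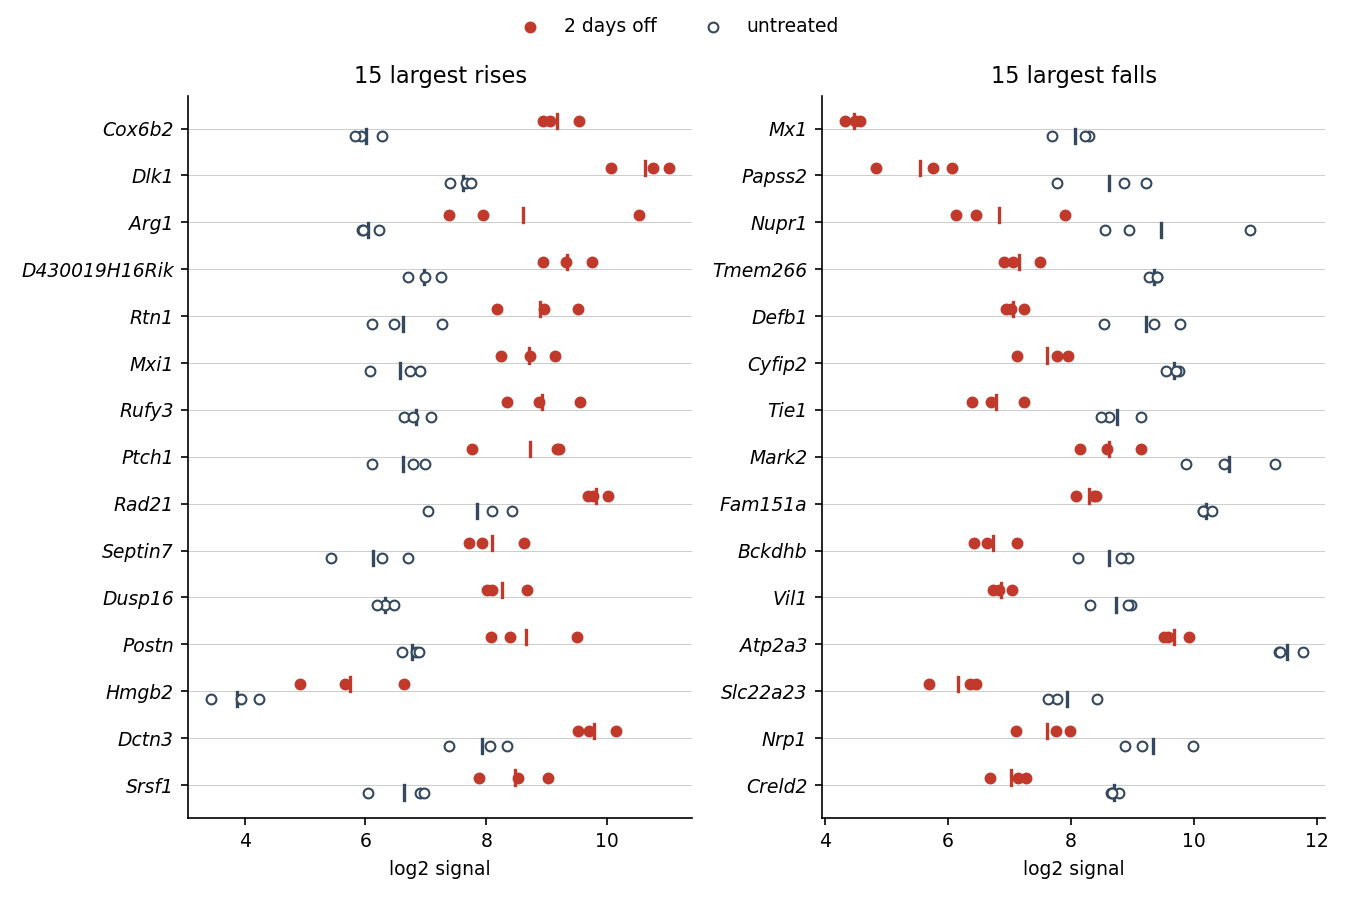
Level of the 15 largest rises, left, and the 15 largest falls, right (horizontal axes, log2 signal), with filled points for the 3 arrays at 2 days off, drawn above the open points of the 3 untreated arrays, and a short bar at each group mean. The groups do not overlap in any of the 30 genes, which the choice of genes required, and Arg1 at 2 days off spans 7.38 to 10.52.

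The CACGTG site was looked for in the promoters of these 30 genes, in the 250 bases before and the 50 after each start. RefSeq entries on GRCm38.p6 were matched for 25 of them, and 2 rises and 1 fall held the site. The motif reads the same on both strands. It was present in 103 of 794 promoters of genes called higher (13.0%), in 100 of 773 of genes called lower (12.9%), in 550 of 5009 of genes not called (10.98%), and in 753 of 6576 promoters of all genes (11.5%). The 3 promoters are shown because they belong to the named genes that hold the letters Myc and Max bind, with the site in capitals. D430019H16Rik lies at chr12:105453606-105453905, plus strand, Septin7 at chr9:25251741-25252040, plus strand, and Nupr1 at chr7:126625421-126625720, minus strand.
D430019H16Rik: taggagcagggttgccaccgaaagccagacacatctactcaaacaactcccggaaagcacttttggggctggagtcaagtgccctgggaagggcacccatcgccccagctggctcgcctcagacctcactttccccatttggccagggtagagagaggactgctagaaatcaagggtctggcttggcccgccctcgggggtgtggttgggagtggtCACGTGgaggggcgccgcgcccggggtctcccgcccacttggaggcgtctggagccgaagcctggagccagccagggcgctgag
Septin7: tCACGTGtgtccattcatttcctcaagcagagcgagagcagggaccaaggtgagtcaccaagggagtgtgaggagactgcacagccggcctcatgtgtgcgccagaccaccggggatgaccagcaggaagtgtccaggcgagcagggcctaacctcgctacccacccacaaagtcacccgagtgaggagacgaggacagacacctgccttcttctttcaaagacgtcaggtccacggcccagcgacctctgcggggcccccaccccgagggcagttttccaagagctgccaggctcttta
Nupr1: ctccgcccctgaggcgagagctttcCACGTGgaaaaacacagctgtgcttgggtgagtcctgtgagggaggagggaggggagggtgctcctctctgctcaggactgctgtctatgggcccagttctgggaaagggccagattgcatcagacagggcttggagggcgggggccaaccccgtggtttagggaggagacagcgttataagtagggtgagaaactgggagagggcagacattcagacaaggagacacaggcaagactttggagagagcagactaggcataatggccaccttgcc
In D430019H16Rik the site stood close to the start, while in Septin7 and Nupr1 it stood at the far end of the window, and a match is no evidence of binding.

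Within the Myc network, the list of 21 genes had 2 members higher and 1 lower. Mxi1, above, and Max, the partner of both Myc and its rivals, rose, and Usf2, another factor that binds CACGTG, fell. Max read 9.45, 9.28 and 9.50 at 2 days off, against 8.31, 8.68 and 9.17 in untreated islets, 1.61-fold higher (adjusted p = 0.0237), a call that ended without replicate 1 or 3 of the 2 day group or untreated replicate 1 or 2 (adjusted p of 0.0613 to 0.155). Usf2 was 1.40-fold lower (adjusted p = 0.00313), though not called in the 6 arrays alone (0.0656). The probe set of Myc itself read 3.25, 5.52 and 3.93 at 2 days off and 4.07, 3.52 and 3.70 in untreated islets, inside the bacterial control range, and did not pass (0.47 ± 0.49, adjusted p = 0.558). The Myc difference was -0.17 without replicate 2 of the 2 day group. Esr1, the estrogen receptor whose ligand-binding domain MycER carries, read 10.84, 11.47 and 11.77 at 2 days off and 12.00, 12.23 and 11.94 in untreated islets (-0.70 ± 0.28, adjusted p = 0.0862), while 1 of its 3 other probe sets fell by 0.39 (0.0326). Bcl2l1, the gene of BclXL, differed by -0.09 ± 0.11 (adjusted p = 0.608), and its other probe set fell by 0.30 (0.0386). Whether these probe sets read the transgenes was not tested.

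Genes of ribosome production rose more often than they fell. Of 65 measured members, 16 rose (24.6%) and 1 fell, against 11.7% and 11.5% of all genes, and the median difference was 0.17 against -0.02 over all genes. Npm1, nucleophosmin of the nucleolus, read 11.25, 11.17 and 11.63 at 2 days off, against 8.79, 10.02 and 10.22 in untreated islets, 3.19-fold higher (adjusted p = 0.000391). Utp4, which processes the small-subunit rRNA, read 9.60, 8.88 and 9.32 at 2 days off, against 7.77, 7.87 and 8.08 in untreated islets, 2.57-fold higher (adjusted p = 0.000306). Pno1, an assembly factor of the same subunit, was 2.55-fold higher (adjusted p = 0.000772), though not called in the 6 arrays alone (0.0558). Ncl, nucleolin, was 1.85-fold higher (adjusted p = 0.0199), a call that ended without replicate 1 or 3 of the 2 day group (0.0897 and 0.0563) or untreated replicate 1 (0.149). The count was 16 higher and 0 lower without both arrays richest in acinar RNA, beside 611 and 532 in all genes. In the 6 arrays alone it was 7 and 0, beside 477 and 396.

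Of 44 genes often induced by Myc, 9 rose (20.5%) and 2 fell, with a median difference of 0.03. Bzw2, a protein related to translation initiation factors, read 11.12, 10.62 and 10.92 at 2 days off, against 9.53, 9.28 and 10.09 in untreated islets, 2.38-fold higher (adjusted p = 3.66e-05). Cdca7, a regulator linked to cell division, was 2.03-fold higher (adjusted p = 0.00675), a call that ended without both arrays richest in acinar RNA (0.109). Ribosomal proteins were closer to the background, with 5 of 31 higher (16.1%) and 1 lower. Rps7, of the small subunit, was 1.77-fold higher (adjusted p = 0.00449), a call that ended without both arrays richest in acinar RNA (0.0512) or when the Gapdh 3′ excess was fitted (0.0513).

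The machinery of translation moved in both directions, with 11 of 53 members higher (20.8%) and 8 lower (15.1%). Among 34 initiation, elongation and release factors, 7 rose and 2 fell. Eif3a, the largest subunit of an initiation complex, read 7.89, 7.09 and 8.50 at 2 days off, against 5.97, 6.78 and 6.28 in untreated islets, 2.80-fold higher (adjusted p = 0.00281), though not called in the 6 arrays alone (0.0513). Etf1, which releases the finished chain, was tightly grouped, with 10.36, 10.31 and 10.60 at 2 days off, against 9.02, 9.23 and 9.48 in untreated islets, 2.27-fold higher (adjusted p = 4.68e-06). A second Etf1 probe set gave 1.20 (adjusted p = 0.000131), and 3 others between -0.01 and 0.20 did not pass. Of 19 tRNA synthetases, 4 rose and 6 fell. Hars, which charges the histidine tRNA, read 7.87, 8.68 and 8.61 at 2 days off, against 7.05, 7.03 and 7.43 in untreated islets, 2.32-fold higher (adjusted p = 0.000945). Nars and Mars1, which charge the asparagine and methionine tRNAs and were named after their values were seen, were 2.16-fold and 2.00-fold lower (adjusted p = 0.00127 and 0.000575).

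Called genes of mitosis and the G2 phase all rose, and the list was highest in 1 array. Of 61 measured, 16 rose (26.2%) and 0 fell, the median difference was 0.48, and 51 of 61 differences were positive. The list mean was 7.28, 7.78 and 7.04 at 2 days off and 6.79, 6.75 and 6.85 in untreated islets. Rad21, a subunit of the cohesin ring that holds sister chromatids, read 9.76, 9.68 and 10.02 at 2 days off, against 7.04, 8.42 and 8.09 in untreated islets, 3.92-fold higher (adjusted p = 7.7e-05). Smc3, which forms the same ring, read 7.44, 7.88 and 8.20 at 2 days off, against 5.65, 6.05 and 6.51 in untreated islets, 3.41-fold higher (adjusted p = 5.3e-05). Both cohesin genes kept their call in all 18 other settings. The remaining Smc genes on the array, named after their values were seen, were less steady. Smc2 and Smc4, of the condensin complex that compacts chromosomes, were 3.36-fold and 2.00-fold higher (adjusted p = 0.0315 and 0.0194). Smc6, of a DNA repair complex, was 1.31-fold higher (adjusted p = 0.0313) at levels inside the bacterial control range. Smc2 read 6.95, 8.29 and 6.29 at 2 days off and 5.14, 5.01 and 6.13 in untreated islets, and without replicate 2 of the 2 day group its difference was 1.19 (adjusted p = 0.175). Smc2 also lost its call without replicate 1 of that group or untreated replicate 1 or 2 (adjusted p of 0.0518 to 0.117). Smc4 lost it without the same 2 day array (0.57, adjusted p = 0.145) or untreated replicate 1 or 2, and Smc6 without replicate 2 or 3 of the 2 day group or untreated replicate 1 or 3 (adjusted p of 0.0581 to 0.143).

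In the genes of division that follow, replicate 2 of the 2 day group was the highest array. Hmgb2, a chromatin protein of dividing cells, read 5.66, 6.64 and 4.91 at 2 days off and 3.94, 3.45 and 4.24 in untreated islets, 3.63-fold higher (adjusted p = 0.0122), and without that array the difference was 1.41 (0.0768) and without untreated replicate 2 it was 1.65 (0.0578). Stmn1, which takes microtubules apart and was named after its values were seen, read 9.97, 10.30 and 9.17 at 2 days off and 7.86, 8.21 and 8.42 in untreated islets, 3.14-fold higher (adjusted p = 0.00247). Its other probe set gave 0.04 (adjusted p = 0.834), and without both arrays richest in acinar RNA the Stmn1 call ended (0.0635). Mki67, the standard marker of cycling cells, read 6.79, 8.52 and 5.63 at 2 days off and 5.91, 5.84 and 6.37 in untreated islets, and did not pass (adjusted p = 0.415). Top2a, which untangles chromosomes, read 6.85, 7.99 and 5.73 at 2 days off and 5.87, 6.15 and 6.31 in untreated islets (adjusted p = 0.385). In Mki67 and Top2a the groups overlapped, with replicate 3 of the 2 day group below every untreated array. Without replicate 2 of the 2 day group 9 of the 61 rose and 0 fell, with a median of 0.19, and 885 of all genes rose. Without untreated replicate 1 the count was 10 higher and 1 lower, beside 662 rises in all genes. Without untreated replicate 2 it was 10 and 0, beside 757 rises, and without both arrays richest in acinar RNA it was 6 and 1, beside 611 rises. Without replicate 3 of the 2 day group the count was 19 and 0, beside 651 rises in all genes. The same 2 day replicate 2 had the highest lymphoid mean, and with the acinar and leukocyte means as covariates the count was 19 higher and 0 lower, with a median of 0.58, beside 797 rises in all genes.

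Counts for DNA replication and the G1 to S step also varied with the arrays. Of 61 genes, 13 rose (21.3%) and 1 fell, with a median difference of 0.29. Fen1, which trims lagging-strand fragments, was 2.69-fold higher (adjusted p = 0.0356), Slbp, which binds histone mRNA, 2.30-fold (0.0149), and Rfc4, a subunit of the clamp loader, 2.20-fold (0.00541). Rfc4 read 4.75, 5.73 and 4.78 at 2 days off and 3.94, 4.04 and 3.86 in untreated islets, low levels that did not overlap, and was not called without both arrays richest in acinar RNA (adjusted p = 0.0895). Pcna, the sliding clamp, read 8.12, 9.15 and 7.94 at 2 days off and 6.89, 7.41 and 8.07 in untreated islets (0.95 ± 0.37, adjusted p = 0.0744). Without replicate 2 of the 2 day group 6 rose and 3 fell, with a median of 0.04, and the calls of Fen1 (0.90, adjusted p = 0.209) and Slbp (0.83, 0.101) ended. Slbp also lost its call without untreated replicate 1, and Fen1 without replicate 3 of the 2 day group or untreated replicate 1 or 2 (adjusted p of 0.0653 to 0.103). Without untreated replicate 1 5 rose and 1 fell, without untreated replicate 2 8 rose and 1 fell, and without both arrays richest in acinar RNA 3 rose and 0 fell. All genes gave 662, 757 and 611 rises in these settings, in that order, and 885 without replicate 2 of the 2 day group. Without untreated replicate 3 15 rose and 1 fell, and with the acinar and leukocyte means as covariates 17 rose and 0 fell, with a median of 0.46.

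The proteasome, which degrades tagged proteins, had the largest share of called rises of the lists in the plot of list calls. Of 41 genes, 12 rose (29.3%) and 2 fell, with a median difference of 0.31. In the 20S core, where proteins are cut, 7 of 17 subunits rose and 0 fell. Psma5, of the core, read 10.04, 10.40 and 10.62 at 2 days off, against 8.65, 9.15 and 9.21 in untreated islets, 2.55-fold higher (adjusted p = 5.24e-05). In the 19S cap, which admits them, 5 of 20 rose and 2 fell. Psmd13, of the cap, was 2.13-fold higher, with 8.70, 9.31 and 9.02 at 2 days off, against 7.74, 7.87 and 8.15 in untreated islets (adjusted p = 0.00148). Psmd11, also of the cap, was 2.09-fold lower by its main probe set (adjusted p = 0.00244), while its others gave -0.06 and 0.32 and did not pass. Without both arrays richest in acinar RNA 7 proteasome genes rose and 1 fell, beside 611 and 532 of all genes. Of 41 chaperones, 8 rose (19.5%) and 3 fell. Cct8, of the ring that folds actin and tubulin, read 8.71, 8.43 and 9.30 at 2 days off, against 6.64, 7.37 and 7.30 in untreated islets, 3.27-fold higher (adjusted p = 2.97e-05). Hspa14, an Hsp70 relative bound to ribosomes, was 2.24-fold higher (adjusted p = 0.000717). Hspa1a, the heat-induced Hsp70, read 7.81, 7.60 and 7.76 at 2 days off and 7.86, 8.82 and 10.35 in untreated islets, 2.44-fold lower (adjusted p = 0.0311). The Hspa1a difference was -0.62 without untreated replicate 3 (adjusted p = 0.212), and the call also ended without any 1 of the 2 day arrays or untreated replicate 2 (0.0535 to 0.0808).

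**Figure D4:**
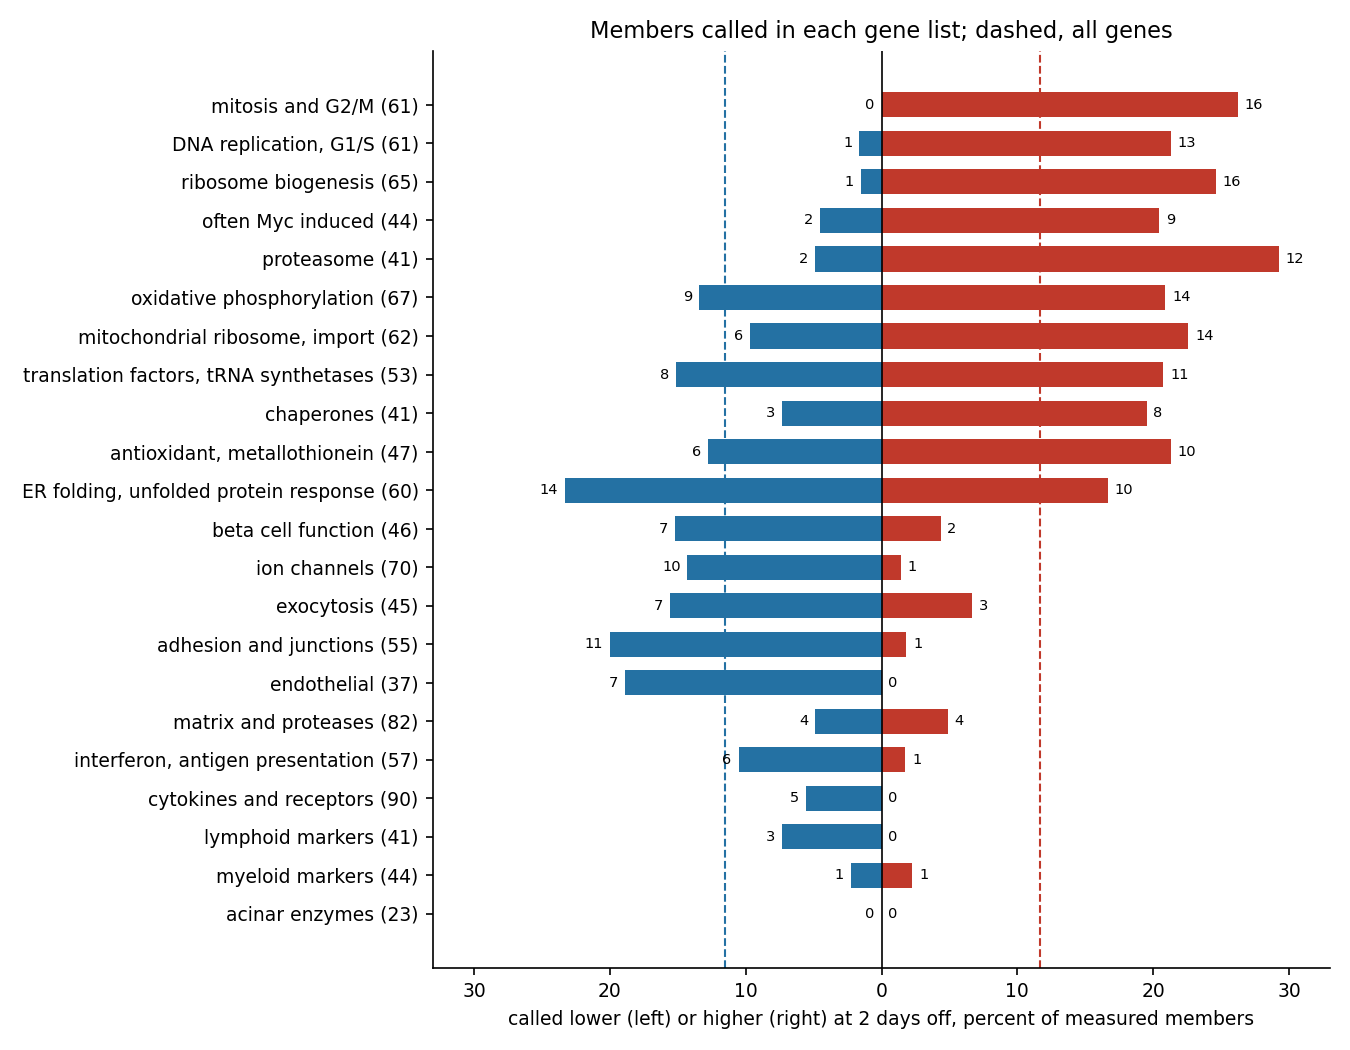
Share of the measured members of 22 gene lists called higher (red, right) or lower (blue, left) at 2 days off against untreated islets (horizontal axis, percent of members), with the number called at each bar, the number measured in parentheses, and dashed lines at the shares of all genes, 11.7% and 11.5%. Proteasome and mitosis reach 29.3% and 26.2% higher, endoplasmic reticulum folding and adhesion reach 23.3% and 20% lower.

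Mitochondrial genes moved in both directions. Of 67 genes of oxidative phosphorylation, 14 rose (20.9%) and 9 fell (13.4%), with a median difference of 0.05. Complex II, which links the citric acid cycle to the respiratory chain, had 3 of 4 subunits higher. Sdha, its flavoprotein, read 7.09, 6.78 and 7.06 at 2 days off, against 5.03, 5.59 and 5.45 in untreated islets, 3.07-fold higher (adjusted p = 1.81e-05). Sdhb and Sdhc, named after their values were seen, were 2.20-fold and 1.64-fold higher (adjusted p = 9.06e-05 and 0.0073), and without both arrays richest in acinar RNA Sdhc was not called (0.098). Complex I had 8 of 29 subunits higher and 2 lower, and Ndufv2, of its NADH-binding part, was 2.53-fold higher (adjusted p = 0.000438), with its other probe set at 0.35 (0.127). In cytochrome c oxidase 1 of 13 rose, Cox6b2, and 3 fell, and in ATP synthase 0 of 12 rose and 3 fell. Of 62 genes of the mitochondrial ribosome and of import, 14 rose (22.6%) and 6 fell. Mrps22 read 6.44, 6.57 and 7.26 at 2 days off, against 4.84, 4.99 and 5.59 in untreated islets, 3.07-fold higher (adjusted p = 6.31e-05), and Mrpl2 was 2.21-fold higher (0.000486), though its other probe set gave -0.10. Mrpl23, also a mitochondrial ribosomal protein, fell 2.64-fold, to 8.60, 8.58 and 8.77 at 2 days off, against 10.16, 9.97 and 10.02 in untreated islets (adjusted p = 0.000289).

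Of 46 genes listed for beta cell function, 7 fell (15.2%) and 2 rose, with a median difference of -0.09. The list also holds Dlk1, the larger of the 2 rises at 3.01, and Papss2, the largest of the 7 falls at -3.06. The hormones were not among the falls by their main probe sets: Ins2 differed by -0.17 ± 0.11 (adjusted p = 0.306) and Iapp by -0.10 ± 0.17 (0.736). The 2nd Ins2 probe set gave -0.73 (adjusted p = 9.1e-05), and at the top of the scale array signal can saturate. Th, tyrosine hydroxylase, read 8.46, 9.16 and 8.73 at 2 days off, against 10.53, 10.06 and 10.59 in untreated islets, 3.05-fold lower (adjusted p = 0.000584). Ddc, the next enzyme on the way to dopamine and named after its values were seen, was 1.94-fold higher (adjusted p = 0.0128), with 11.04, 11.01 and 11.51 at 2 days off, against 9.62, 10.47 and 10.61 in untreated islets, and lost its call without replicate 3 of the 2 day group (0.0759) or untreated replicate 1 (0.107). Abcc8, the sulfonylurea receptor of the potassium channel that starts secretion, read 9.97, 10.83 and 11.13 at 2 days off, against 11.92, 11.55 and 11.77 in untreated islets, 2.15-fold lower (adjusted p = 0.0126). Its call ended without replicate 1 of the 2 day group (-0.77, adjusted p = 0.0898) or untreated replicate 1 (-1.02, 0.054), and its other probe set gave -0.06 (0.713). G6pc2, an islet enzyme that reverses glucose phosphorylation and was named after its values were seen, was 2.05-fold lower (adjusted p = 0.022). The G6pc2 call ended without replicate 1 or 2 of the 2 day group or untreated replicate 2 or 3 (adjusted p of 0.0541 to 0.0845).

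Several panel genes of islet cells missed the threshold. Slc2a2, the glucose transporter GLUT2, read 9.18, 8.89 and 10.36 at 2 days off and 9.95, 10.63 and 10.98 in untreated islets (-1.04 ± 0.42, adjusted p = 0.0803). Pdx1, the transcription factor that maintains beta cell identity, read 6.19, 6.79 and 6.53 at 2 days off and 7.12, 6.94 and 7.11 in untreated islets (-0.55 ± 0.20, adjusted p = 0.0512), and its groups did not overlap. Neurod1, another islet transcription factor, read 7.28, 6.58 and 7.45 at 2 days off and 6.09, 6.83 and 6.08 in untreated islets (0.77 ± 0.30, adjusted p = 0.0759). Ppy, pancreatic polypeptide of another islet cell, read 12.79, 12.86 and 12.86 at 2 days off and 11.25, 11.65 and 11.95 in untreated islets; its difference of 1.22 ± 0.58 did not pass (adjusted p = 0.15). Of 70 ion channel genes, 10 fell (14.3%) and 1 rose. Itpr2, a calcium release channel, was 2.89-fold lower (adjusted p = 0.0207) and lost its call without replicate 1 or 3 of the 2 day group (0.0635 and 0.0571) or untreated replicate 1 (0.138). Of its 3 other probe sets, 1 fell by 0.61 (adjusted p = 0.0358). Clcn3, a chloride exchanger of vesicles, was 2.07-fold higher (adjusted p = 0.00415), though its 3 other probe sets lay between -0.26 and 0.08, and it was not called in the 6 arrays alone (0.101). Of 45 exocytosis genes, 7 fell (15.6%) and 3 rose, and Stx5a, a syntaxin of the Golgi, was 1.86-fold lower (adjusted p = 0.00101).

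The endoplasmic reticulum, where insulin is folded, held more called falls than any other list in the plot of list calls. Of 60 genes of folding, transport and the unfolded protein response, 14 fell (23.3%) and 10 rose (16.7%), with a median difference of -0.18. Sec61a1, the channel through which new proteins enter, read 10.91, 10.76 and 10.69 at 2 days off, against 12.51, 11.85 and 12.32 in untreated islets, 2.71-fold lower (adjusted p = 0.000103). Its 2nd probe set also fell, by 1.10 (adjusted p = 0.00107). Creld2, a gene of the stress response, read 6.68, 7.14 and 7.27 at 2 days off, against 8.78, 8.65 and 8.66 in untreated islets, 3.17-fold lower (adjusted p = 1.81e-05). Fkbp11, a folding enzyme of secretory cells, was 2.70-fold lower (adjusted p = 0.000272), and Ero1b, which oxidises disulfide bonds in beta cells and was named after its values were seen, was 2.52-fold lower (7.7e-05). Xbp1, the transcription factor of the response, read 8.12, 8.89 and 9.27 at 2 days off and 9.73, 9.77 and 9.81 in untreated islets, 2.01-fold lower (adjusted p = 0.00438), though not called in the 6 arrays alone (0.0615). Hspa5, the main chaperone of this compartment, read 10.48, 10.52 and 11.10 at 2 days off and 9.85, 10.76 and 10.93 in untreated islets; the groups overlapped and it did not pass (0.19 ± 0.30, adjusted p = 0.727). The falls numbered 12 without replicate 3 of the 2 day group, where the rises numbered 1, and 10 without both arrays richest in acinar RNA, where the rises numbered 0. All genes gave 676 falls and 651 rises in the former setting and 532 and 611 in the latter. Acinar cells are also rich in this machinery, and with the acinar and leukocyte means as covariates 11 genes fell and 5 rose, with a median of -0.04. In all genes 661 fell and 797 rose with these covariates.

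Adhesion genes fell more often than they rose, with 11 falls among 55 genes (20%), 1 rise and a median difference of -0.18. Dsp, desmoplakin of desmosomes, read 6.86, 6.55 and 7.12 at 2 days off, against 7.26, 8.41 and 8.42 in untreated islets, 2.28-fold lower (adjusted p = 0.00195), but its other probe set gave -0.07 (0.701) and it was not called in the 6 arrays alone (0.0663). Epcam, an epithelial adhesion protein, was 2.03-fold lower (adjusted p = 0.0147) at levels inside the bacterial control range, and lost its call without replicate 2 or 3 of the 2 day group or untreated replicate 3 (0.0583 to 0.0656). Cdh1, E-cadherin, did not pass (-0.20 ± 0.12, adjusted p = 0.246). Cd81, a tetraspanin, was the 1 rise, 1.97-fold, with 10.16, 9.83 and 10.18 at 2 days off, against 8.83, 9.15 and 9.25 in untreated islets (adjusted p = 0.000906). In the 6 arrays alone the adhesion count was 2 lower and 1 higher, beside 396 and 477 in all genes. Without replicate 3 of the 2 day group it was 3 and 1, beside 676 and 651.

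Of 37 genes listed for endothelial cells and vessel growth, 7 fell (18.9%) and 0 rose. The falls include Vegfa, a growth factor and not a marker of endothelial cells. Tie1, a receptor of vessel lining cells, read 6.70, 7.24 and 6.40 at 2 days off, against 9.13, 8.61 and 8.48 in untreated islets, 3.89-fold lower (adjusted p = 9.1e-05), and its other probe set gave -0.64 (0.0515). Emcn, endomucin, read 9.18, 9.08 and 9.28 at 2 days off, against 10.84, 10.52 and 10.82 in untreated islets, 2.92-fold lower (adjusted p = 0.0011). One of its other probe sets fell by 1.04 (adjusted p = 0.0362) and one did not pass (-0.16, 0.274). Vegfa, the vessel growth factor that beta cells secrete, read 7.77, 7.67 and 7.79 at 2 days off and 8.90, 8.59 and 8.39 in untreated islets, 1.84-fold lower (adjusted p = 0.0256), a call that ended without any 1 of the 2 day arrays or untreated replicate 1 or 2 (0.0543 to 0.115). The mean of the whole list was 6.69 to 6.87 at 2 days off and 6.88 to 7.11 in untreated islets. Without untreated replicate 1 the endothelial falls numbered 3, beside 661 falls in all genes.

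Of 82 matrix and protease genes, 4 rose and 4 fell (4.88% each), below the shares of all genes. Postn, periostin made by fibroblasts, read 8.07, 8.39 and 9.50 at 2 days off, against 6.83, 6.89 and 6.60 in untreated islets, 3.68-fold higher (adjusted p = 0.00438), a call that ended when the Gapdh 3′ excess was fitted (0.0521). Col3a1, a fibrillar collagen, read 9.30, 9.53 and 10.35 at 2 days off, against 8.56, 8.33 and 8.10 in untreated islets, 2.63-fold higher (adjusted p = 0.0123). In both genes the highest array was replicate 3 of the 2 day group, and without it the Col3a1 difference was 1.08 (adjusted p = 0.0853).

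In the immune lists the shares called were below those of all genes, 11.7% higher and 11.5% lower, though the interferon falls were close. Of 57 genes of interferon and antigen display, 6 fell (10.5%) and 1 rose. Besides Mx1, Lgals3bp, a secreted glycoprotein, fell 1.69-fold (adjusted p = 0.025), a call that ended without replicate 2 or 3 of the 2 day group or untreated replicate 2 (0.0663 to 0.166). Usp18, which damps interferon signalling, rose 2.13-fold, with 9.63, 9.71 and 9.66 at 2 days off, against 8.11, 8.78 and 8.83 in untreated islets (adjusted p = 0.000485). Of 90 cytokines and receptors 5 fell (5.56%) and 0 rose, and Il6ra, the interleukin 6 receptor, was 2.66-fold lower (adjusted p = 0.0135), a call that ended without replicate 3 of the 2 day group (0.082) or untreated replicate 1 (0.111). Of 41 lymphoid markers 3 fell (7.32%) and 0 rose, and of 44 myeloid markers 1 fell and 1 rose (2.27% each). The 1 myeloid rise was Cd68, a macrophage protein, with 8.87, 8.74 and 8.55 at 2 days off, against 7.63, 7.55 and 7.75 in untreated islets, 2.11-fold higher (adjusted p = 0.0358). The groups did not overlap, yet the call ended without any 1 of the 6 arrays (adjusted p of 0.0532 to 0.1), and the other Cd68 probe set gave -0.28 (0.221). Of the 23 acinar enzymes 0 were called, although 22 differences were negative with a median of -1.41 and 4 were lower at an unadjusted p under 0.05 (18.6% of all genes). Without replicate 2 of the 2 day group 9 acinar genes were called lower, with a median of -2.27, and without untreated replicate 1 the count was 0, with a median of -0.41. All genes gave 779 and 661 falls in these settings.

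Stress and metabolic genes gave smaller groups. All 3 metallothioneins on the array, which bind zinc and copper, fell. Mt2 read 10.77, 11.02 and 10.03 at 2 days off, against 11.92, 12.08 and 12.61 in untreated islets, 3.02-fold lower (adjusted p = 0.000344). Mt1 and Mt3, named after their values were seen, were 2.26-fold and 1.30-fold lower (adjusted p = 0.00266 and 0.0125). The Mt3 call ended without replicate 3 of the 2 day group (0.051), and Mt1 and Mt2 are near copies whose probes may share signal. In the list of 47 antioxidant and metal genes that holds them, 10 rose (21.3%) and 6 fell. Txnrd2, the mitochondrial thioredoxin reductase, read 8.74, 9.02 and 8.74 at 2 days off, against 7.65, 7.33 and 7.20 in untreated islets, 2.71-fold higher (adjusted p = 2.18e-05). Txn1, the thioredoxin of the cytosol, was 2.44-fold higher (adjusted p = 0.000741).

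Among 50 genes of apoptosis, 6 rose (12.0%) and 5 fell (10%), shares near those of all genes. Cidea, a lipid droplet protein named for an effect on cell death, read 8.40, 7.38 and 7.60 at 2 days off, against 6.36, 6.32 and 6.33 in untreated islets, 2.74-fold higher (adjusted p = 0.000344). Apaf1, the scaffold on which caspase 9 is activated, was 1.87-fold higher, with 6.75, 6.16 and 6.78 at 2 days off, against 5.44, 5.43 and 6.12 in untreated islets (adjusted p = 0.00195), though not called in the 6 arrays alone (0.0653). Tradd, an adaptor of the TNF receptor, was 2.04-fold lower (adjusted p = 2.05e-05). Of 29 genes of the p53 pathway, 6 rose (20.7%) and 4 fell. Gadd45b, a stress-induced growth regulator, was 3.02-fold higher (adjusted p = 0.00244), its other probe set rose by 0.62 (0.0239), and Btg1, which slows division, was 2.41-fold higher (0.0144). The Btg1 call ended without replicate 3 of the 2 day group or untreated replicate 1 or 2 (adjusted p of 0.0612 to 0.063). Of 35 immediate early genes 6 rose (17.1%) and 2 fell. Atf3, a stress transcription factor, was 2.72-fold higher by its main probe set (adjusted p = 0.00449), while its others, at -0.05 and -0.28, did not pass. Rgs2, which dampens G protein signals, was 2.87-fold higher (adjusted p = 0.0493), a call that ended without replicate 1 or 2 of the 2 day group or untreated replicate 1 or 2 (0.0737 to 0.212).

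In sugar metabolism 3 of 35 genes rose and 5 fell (14.3%). Pdk1 and Pdk3, kinases that switch off pyruvate entry into mitochondria, were 2.58-fold and 2.03-fold higher (adjusted p = 0.000575 and 0.00677). Pdk1 read 10.35, 9.49 and 9.58 at 2 days off and 8.46, 7.98 and 8.88 in untreated islets. The Pdk3 call ended without untreated replicate 1 (0.65, adjusted p = 0.0618). Of 25 genes of sterol and fatty acid synthesis 6 rose (24.0%) and 5 fell (20%). Elovl6, which lengthens fatty acids, was 2.31-fold higher (adjusted p = 0.000137) by its main probe set and was not called by the other (0.993). Hmgcs1, an early enzyme of cholesterol synthesis, was 2.63-fold higher (adjusted p = 0.0202), a call that ended without replicate 3 of the 2 day group (0.0879) or untreated replicate 1 (0.127). Of 52 lysosome and autophagy genes 9 rose (17.3%) and 8 fell (15.4%). Atp6v1a, of the pump that acidifies lysosomes, was 2.61-fold higher (adjusted p = 0.000351), Ctsl, cathepsin L, 2.43-fold (0.000385), and Becn1, beclin 1 of autophagy, 1.86-fold (0.00112). The other probe sets of Atp6v1a, at 0.15 and 0.30, did not pass. Among 30 imprinted and growth genes 3 rose (10%) and 1 fell, and Ndn, necdin, an imprinted growth suppressor, was 2.32-fold higher (adjusted p = 0.00222) with a 2nd probe set at 1.14 (0.000622).

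To place the 2 day values in the course, the same genes were read at the end of the 21 days on drug and after 4 and 6 days off, each against the same untreated arrays, so these comparisons share their controls. After 21 days on, 1354 genes (16.4%) were called against untreated islets, at 4 days off 2183 (26.5%) and at 6 days off 1115 (13.5%). Set directly against the 21 day arrays, the 2 day arrays differed in 14 genes (0.170%), 13 higher (0.158%) and 1 lower (0.0121%). Of the 14, 6 are among the named genes. Smc3 had a level of 7.84 ± 0.38 at 2 days off and 6.54 ± 0.37 at 21 days (SD, n = 3 each), a difference of 1.30 ± 0.24 (SE, adjusted p = 0.0334). Hars differed by 1.24 ± 0.23 (adjusted p = 0.0334), Txnrd2 by 0.99 ± 0.18 (0.0334), Mrpl2 by 1.06 ± 0.20 (0.0348), Mrps22 by 1.10 ± 0.22 (0.0451) and Sdha by 0.97 ± 0.20 (0.0451). These 6 genes had been named as rises at 2 days off and were also higher than at 21 days. That their 21 day level lay closer to that of untreated islets follows in large part from this choice. Against untreated islets Hars stood at -0.02 after 21 days on and Mrpl2 at 0.08.

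Some other named genes differed from untreated islets in the same direction after 21 days on and at 2 days off. Mx1 stood at -3.76, -3.60, -3.71 and -3.47 after 21 days on and 2, 4 and 6 days off. Papss2 stood at -3.21, -3.06, -2.58 and -2.75. In both genes all arrays of the 4 groups lay below the lowest untreated array. Dlk1 stood at 3.70, 3.01, 2.64 and 1.72 over the same 4 times, and Cidea at 2.60, 1.46, 1.52 and 0.84. For Th the differences were -2.23, -1.61, -0.87 and -1.16, for Creld2 -2.27, -1.67, -1.09 and -1.23, and for Xbp1 -1.86, -1.01, -0.53 and -0.69. Abcc8 stood at -1.88 after 21 days on, -1.10 at 2 days off, -0.19 at 4 days off and -0.78 at 6 days off. In these genes, picked as examples, the sample means at 2 days off lay between those of 21 days on and untreated islets. None of them passed the direct test of 2 days off against 21 days on. Other named genes stood further from untreated islets at 2 days off than after 21 days on. Dctn3 stood at 1.08 after 21 days on and 1.86 at 2 days off, and Septin7 at 1.29 and 1.96. Defb1 stood at -1.21 and -2.15, and Vil1 at -1.03 and -1.87. These also missed that direct test (adjusted p of 0.189 to 0.334). A miss of that test does not show that the levels were alike.

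**Figure D5:**
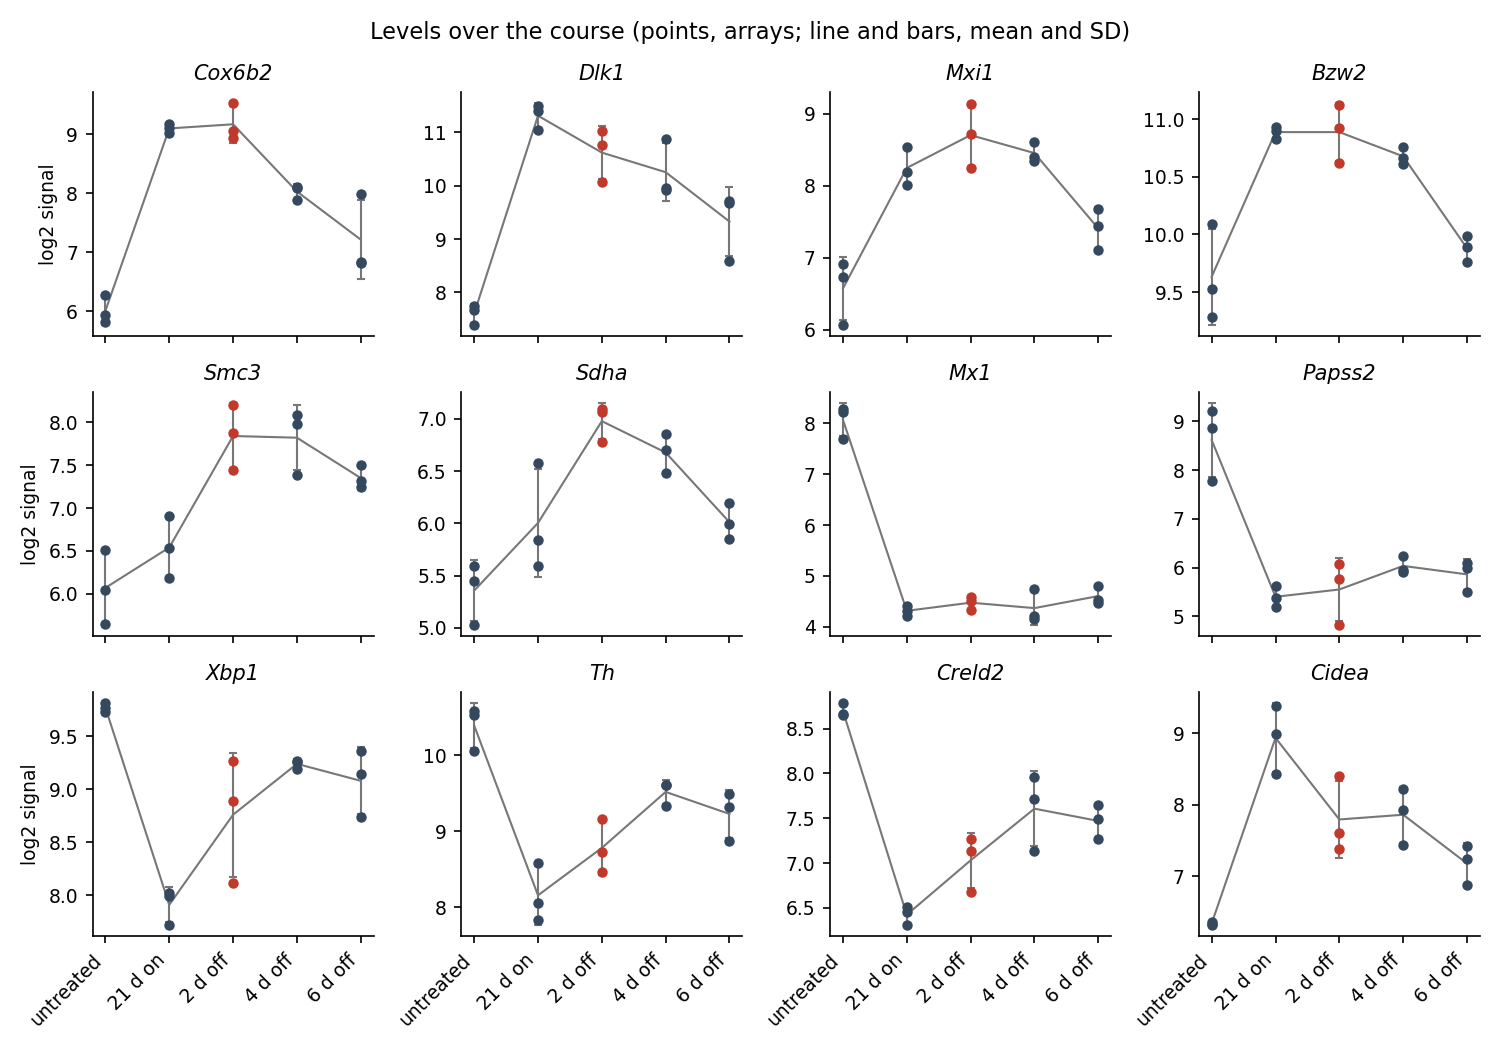
Level of 12 named genes (vertical axes, log2 signal, each panel with its own range) in untreated islets, after 21 days on drug and after 2, 4 and 6 days off, with a point per array, the 2 day arrays in red, and a line with bars for the group mean and SD (n = 3 each). Cox6b2, Mxi1, Bzw2 and Sdha are lower at 6 days off than at 2 days off, Smc3 and Sdha are higher at 2 days off than after 21 days on, and Mx1 stays between 4 and 5 after treatment.

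Set against the 6 day arrays, the 2 day arrays differed in 26 genes (0.315%), 24 higher (0.291%) and 2 lower (0.0242%). Cox6b2 stood at 3.09, 3.16, 2.02 and 1.21 against untreated islets after 21 days on and 2, 4 and 6 days off, and its level was 9.17 ± 0.32 at 2 days off and 7.21 ± 0.66 at 6 days off (SD, n = 3 each). Mxi1 stood at 1.68, 2.13, 1.88 and 0.84, and Bzw2 at 1.25, 1.25, 1.04 and 0.25. Apaf1 stood at 0.12, 0.90, 0.10 and -0.30 over those times, and only the 2 day value was called.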

How the data were processed

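RNA of 27 samples of laser-captured islets was hybridised to Affymetrix mouse arrays, 1 array per sample. Per the labels, the RNA was linearly amplified, in 2 rounds, and labelled with biotin. Log2 signals were deposited, and the submitters' processing notes name RMA, with no version or settings and no scan batches. The method corrects background, makes the distributions of the arrays equal and summarises each probe set, which can shrink differences of weak genes and hides global shifts. The values were used without further scaling.

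The table held 12488 deposited probe sets. With 66 controls removed, 12422 entered the test, of which 10833 had 1 gene symbol in the platform annotation, 396 several and 1193 none, and 10817 Entrez identifiers were found in the RefSeq table of GRCm38.p6. The probe set of highest mean across the 27 arrays stood for its gene, which gave 8251 genes. Of these, 2073 had more than 1 probe set. By the maker's naming, probe sets of Cox6b2, Rufy3, Hmgb2, Tie1, Mark2, Etf1, Abcc8, Itpr2, Cd68, Gadd45b, Atf3, Tradd, Ero1b, Sdhb and Ins2 hold shared probes or probes chosen under relaxed rules.

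Differences were tested two-sided with lmFit and eBayes of limma 3.58.1, run in R 4.3.3, on all 27 arrays with 9 group means and 18 residual degrees of freedom, so the spread of all groups is pooled. P-values were adjusted by Benjamini-Hochberg across the 12422 probe sets, with calls made under 0.05. Exact permutation of 3 arrays against 3 cannot give p under 0.1 and was not used. The fit was tested on simulated data. Tables were made with Python 3.11.15 and pandas 2.3.3.

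The comparison and the 37 gene lists, with 1590 of 1981 symbols on the array, were chosen with earlier results of these data known. Named by rule were the 15 largest rises and 15 largest falls among called genes whose groups did not overlap, the 3 most changed called members of each list, and a panel that could be named whether called or not, of which 50 of 56 symbols were on the array. Not every gene open to naming is named. A gene named outside the rule is marked as named after its values were seen. Lists are described by counts and medians beside those of all genes, with no test of the list.

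The labels name no pairing by replicate number. Deviations of same-numbered arrays correlated at 0.01, -0.26 and 0.17, and those of differently numbered arrays at -0.38 to 0.27. With 3 arrays a group, these values cannot exclude shared handling. The results were recomputed without the 40% lowest probe sets, with median centring, quantile normalization, a trend and robust variance, array weights, the 6 arrays alone, a replicate block, a 2-fold minimum, averaging the probe sets of a gene, counting every probe set, ordinary least squares, acinar and leukocyte means or the Gapdh 3′ excess as covariates, and leaving out each array. Leaving out both arrays richest in acinar RNA, replicate 2 at 2 days off and untreated replicate 1, was chosen after seeing the data.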

Additional observations from a re-analysis of the deposited data

Results flagged for a closer look

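For 6 named genes the difference from untreated islets was not the same at 2 days off and at 6 days off, by the direct limma test of the 2 day arrays against the 6 day arrays. Each was higher at 2 days off. The test against the 6 day arrays was not repeated in the other settings. Cox6b2 differed by 1.96 on the log2 scale (adjusted p = 0.000408), Mxi1 by 1.30 (0.0319), Neurod1 by 1.41 (0.0475), Apaf1 by 1.20 (0.0106), Bzw2 by 1.01 (0.0107) and Sdha by 0.97 (0.0355). Against untreated islets Neurod1 stood at 0.77 at 2 days off and -0.64 at 6 days off, and neither passed the test, with adjusted p of 0.0759 and 0.187. Apaf1 stood at 0.90 and -0.30, of which the 2 day difference passed. The other 4 genes had positive differences at both times.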

How the results depend on the processing

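The count of 1915 called genes, 967 higher and 948 lower, became 873 (477 and 396) in the 6 arrays alone, 1143 (611 and 532) without both arrays richest in acinar RNA, and 400 (283 and 117) with a 2-fold minimum. Leaving out each array gave 1323 to 2038 genes, 651 to 1022 higher and 661 to 1016 lower, with the lowest total without untreated replicate 1. A replicate block gave 1943 genes, 991 higher and 952 lower, although the labels name no pairing by number. The acinar and leukocyte covariates gave 1458 genes and the Gapdh covariate 1592. Of 106 called genes named in the text, 80 kept their call without each of the 6 arrays, and none reversed. In all settings run for single genes, 63 kept their call. The 2-fold minimum and the count of every probe set were not among these settings. Without the 40% lowest probe sets 94 of the 106 were left, and a gene left out there was judged on the other settings. Of genes not called, Hspa5 ranged from -0.15 (without untreated replicate 1) to 0.40 when each array was left out, was -0.01 without replicate 3 at 2 days off, and was -0.055 without both arrays richest in acinar RNA. Myc ranged from -0.17 (without replicate 2 at 2 days off) to 0.96, was -0.02 without both of those arrays, and was -0.10 with the Gapdh covariate. The causes were not tested. Signal over background limits genes at levels inside the range of the bacterial controls, and 3 arrays a group limit all of them.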
